A study of Mus musculus with 4 samples.

Results

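Forkhead genes encode transcription factors that share a winged-helix DNA-binding domain, and this account follows 40 of them, chosen by symbol from a fixed list of the family, among the 25044 entries of the deposited tables. All 40 were matched by Ensembl identifier. RNA was sequenced from brain tissue labelled as the PSTh, the parasubthalamic nucleus, which lies beside the subthalamic nucleus in the posterior hypothalamus. The 4 libraries, replicates 1 to 4, came from naive C57BL/6 mice, an inbred strain, and formed 1 group without genetic change or treatment. The age of the mice, and whether animals were pooled, were not given in the sources used here. With a single group, genes were compared with each other inside a library, and libraries with one another.

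In most members the forkhead domain binds DNA as a monomer. Members differ in where they are made more than in the core sequence they recognise. Foxa proteins open compact chromatin, and in the brain Foxa1 and Foxa2 are needed for the formation and upkeep of midbrain dopamine neurons. Foxb1 is known from the mammillary region, Foxp1 and Foxp2 from striatal, thalamic and cortical neurons, and Foxj1 is the master regulator of motile cilia, in the brain mainly those of ependymal cells. Foxo proteins are held in the cytoplasm by insulin and Akt signalling. Foxk, Foxn2, Foxn3, Foxj2 and Foxj3 are made in many tissues. The members were therefore described in 4 classes: regional (Foxa, Foxb and Foxp), ciliary (Foxj, although only Foxj1 of these is known as a ciliary regulator), broad (Foxo, Foxk and Foxn) and the 18 others.

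The promoters of 4 members are shown because Foxa1 and Foxa2 had the largest variance relative to genes of like level and shared their highest and lowest library, while Foxj3 and Foxk2 had the highest levels. Each is the stretch of 250 bases before an annotated start, on the gene's own strand, from RefSeq on GRCm38.p6. Capitals mark matches on either strand to any of 5 motifs, none of which contains another. They are the forkhead core, spelled TGTTTAC, and the box bound by the factor NF-Y in many promoters, spelled CCAAT. The element near many start sites that binds the TATA-binding protein was searched as TATAAA, and the GC box, bound by Sp1, as GGGCGG. The cAMP response element was searched as TGACGTCA. Foxa1 lies on the minus strand at chr12:57546112-57546361, Foxa2 on the minus strand at chr2:148046970-148047219, Foxj3 on the plus strand at chr4:119539411-119539660 and Foxk2 on the plus strand at chr11:121259737-121259986. For Foxa2 this is the window farthest upstream of its 3. The windows of Foxa1 and Foxj3 precede a RefSeq start but lie inside the gene as annotated in GENCODE M21. An annotated exon of the same gene covers 10 bases of the Foxa1 window and 0 of the Foxj3 window.
Foxa1: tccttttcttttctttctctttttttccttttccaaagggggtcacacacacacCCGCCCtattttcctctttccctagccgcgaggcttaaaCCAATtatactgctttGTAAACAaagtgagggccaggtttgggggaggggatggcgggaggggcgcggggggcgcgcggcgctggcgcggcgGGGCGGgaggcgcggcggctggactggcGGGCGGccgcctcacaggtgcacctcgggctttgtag
Foxa2: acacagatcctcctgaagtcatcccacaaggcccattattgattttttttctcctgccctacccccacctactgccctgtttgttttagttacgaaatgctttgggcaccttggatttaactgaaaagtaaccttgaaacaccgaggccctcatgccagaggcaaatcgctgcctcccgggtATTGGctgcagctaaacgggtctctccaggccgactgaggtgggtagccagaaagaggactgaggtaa
Foxj3: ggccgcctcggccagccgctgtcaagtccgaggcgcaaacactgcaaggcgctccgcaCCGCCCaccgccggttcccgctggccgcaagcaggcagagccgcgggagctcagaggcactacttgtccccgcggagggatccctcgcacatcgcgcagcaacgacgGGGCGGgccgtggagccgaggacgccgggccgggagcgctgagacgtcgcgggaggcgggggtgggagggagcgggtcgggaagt
Foxk2: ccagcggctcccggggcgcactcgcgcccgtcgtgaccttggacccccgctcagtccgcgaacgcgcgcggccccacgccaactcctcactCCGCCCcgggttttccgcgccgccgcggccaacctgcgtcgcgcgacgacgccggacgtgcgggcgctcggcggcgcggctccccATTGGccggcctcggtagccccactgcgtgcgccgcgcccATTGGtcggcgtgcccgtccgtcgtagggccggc
The window of Foxa1 held a forkhead core, written on the minus strand as GTAAACA, and it was the 1 of 30 windows of members that did (3.3%), against 3.2% of all 32851 windows of the same length. A GC box was present in 70.0% of members' windows and in 32.7% of all windows, and a CCAAT box in 43.3% and 33.8%. A TATA box was present in 3 windows of members and in 12.4% of all windows, and a cAMP response element in 1 window of members, that of Foxd3 (3.3%), and in 1.5% of all windows. The median GC content was 62.4% in members' windows and 52.4% in all windows. The median number of CpG dinucleotides was 16.5 and 6. The table of promoters matched 25 of the 40 members, and the 30 windows are not independent, since some belong to the same gene.

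The unit is unnamed in labels and headers, and the values were taken to be FPKM, that is, fragment numbers relative to the length of the transcript and the depth of the library. Totals lay between 428612 and 442836 FPKM, and the spacing of low values in genes with a single transcript implied 19300000 to 20800000 fragments per library. Approximate numbers of fragments given below follow from that spacing and the longest annotated transcript. The libraries differed in marker genes of other regions, and their tissue content was not tested. Replicate 1 held the hindbrain and spinal cord gene Hoxb8 at 4.81 FPKM, which was listed at 0 in the others, and replicate 2 the serotonin neuron gene Tph2 of the same list at 26.7 FPKM against 0.198 to 0.319; the list summed to 25.8 and 29.0 FPKM in these libraries and to 0.547 and 0.536 FPKM in the others. Replicate 2 had the highest sum of 12 midbrain dopamine markers (1023 FPKM against 538 to 566) and of the pituitary list (45.0 against 4.68 to 12.1), with the hormone subunit gene Cga at 12.1 FPKM against 0.0676 to 2.34. Replicate 3 had the highest sum of 10 thalamus markers (474 FPKM against 199 to 282) and the lowest lateral hypothalamus sum (178 against 455 to 772). The neuronal list summed to 2873 to 3045 FPKM and Slc17a6, the glutamate transporter gene of subcortical neurons, lay at 80.0 ± 10.5 FPKM (SD, n = 4). In tissue of mixed cells, more cells of a type and more RNA per cell cannot be told apart.

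Of the 40 genes, 28 had a mean of at least 0.1 FPKM and were tested with 17630 genes in all. Each gene's log2(FPKM + 0.1) was set against the median gene of the same library, which lay between 4.70 and 5.01 FPKM. In limma with Benjamini-Hochberg adjustment over all genes tested, 7 members were above the median gene at an adjusted p under 0.05, 18 were below and 3 were not called. The median difference of the 28 was -0.70 log2 units, against -0.01 over all genes tested. Of all genes tested, 47.1% were called above and 46.7% below, so nearly any gene off the median is called. Of the 28 members 25.0% were above and 64.3% below. The counts from lists of other genes given below are to be read against the same shares over all genes. Members with a mean under 0.1 FPKM lie outside these counts, and the filter's boundary ran between Foxh1 at 0.105 FPKM and Foxp3 at 0.0889 FPKM. Against a fixed level of 1 FPKM in place of the median gene the split was 18 above and 7 below, and over all genes 12395 above and 3918 below.

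**Figure D1:**
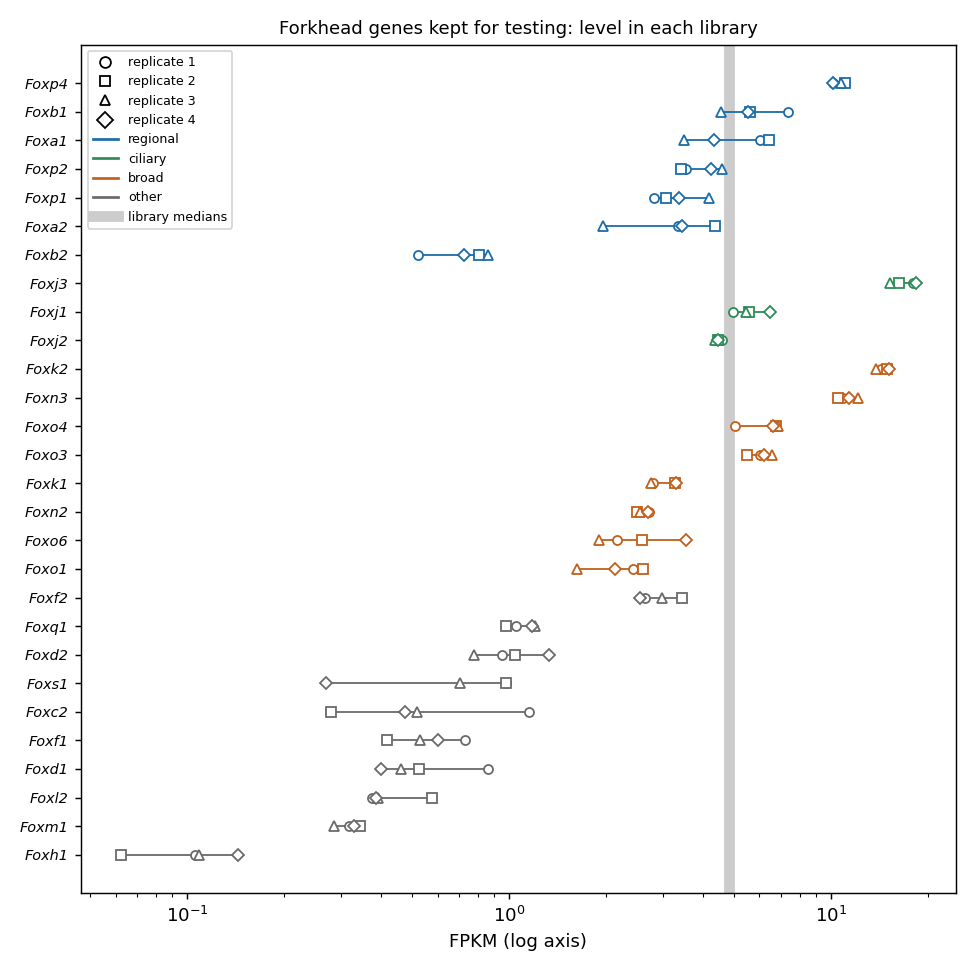
FPKM (log axis) of the 28 forkhead genes tested, with 1 symbol per library and a line from the lowest to the highest library; colours are the 4 classes and the grey band spans the library medians, 4.70 to 5.01 FPKM. Foxj3 and Foxk2 lie farthest to the right, all 10 genes of the class of others lie left of the band, and the lines of Foxc2 and Foxs1 are the longest in proportion to level among those genes.

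**Figure D2:**
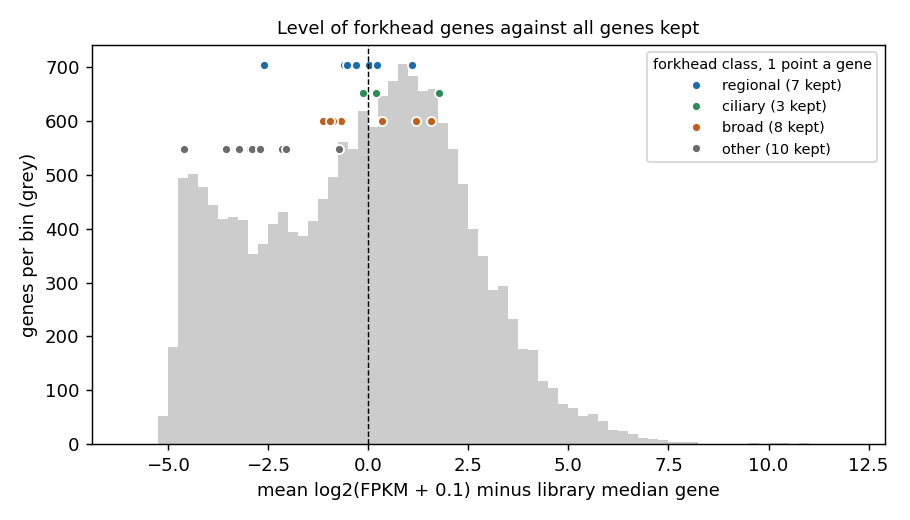
Distribution over the 17630 genes tested of the mean log2 level minus the median gene of the library (grey bars, genes per bin of 0.25), with 1 point for each forkhead gene tested, in 1 row per class. The points of the regional and broad classes straddle the dashed line at 0 and those of the class of others lie left of it, with a median of -2.93.

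Of the 9 regional members 7 were tested: Foxp4 was above the median gene, Foxa2, Foxb2, Foxp1 and Foxp2 were below it, and Foxa1 and Foxb1 were not called. Foxp4 (ENSMUSG00000023991, GRCm38 chromosome 17, 47867133 to 47924645), a repressor of the same subfamily as Foxp1 and Foxp2, had the highest level of the class at 10.1, 11.1, 10.8 and 10.1 FPKM in replicates 1 to 4. Its level was 2.13-fold above the median gene, with a log2 difference of 1.09 (SE 0.05, limma adjusted p = 8.97e-07), and the libraries lay within 1.10-fold of each other. Foxp2 (ENSMUSG00000029563, chromosome 6, 14901349 to 15441977), known for its part in vocal and motor circuits, had 3.54, 3.42, 4.60 and 4.25 FPKM. Foxp1 (ENSMUSG00000030067, chromosome 6, 98925338 to 99522721), which pairs with Foxp2, had 2.83, 3.07, 4.17 and 3.37 FPKM. Both were highest in replicate 3, and neither was above the median gene in any library. Foxp2 was called below the median gene (log2 difference -0.31, SE 0.10, limma adjusted p = 0.0209), a call that was lost without replicate 1 or 2, at -0.25 and -0.23. Foxp1 was also called below (-0.54, SE 0.11, limma adjusted p = 0.00244). Foxp3, the factor of regulatory T cells, was at 0.147, 0.129, 0.0347 and 0.0449 FPKM, about 3 to 12 fragments a library. Of 10 T cell markers 2 were tested, both below the median gene, and Cd3e, a subunit of the T cell receptor complex, lay between 0 and 0.213 FPKM. Foxp3 overlaps 2 genes on the opposite strand, Ppp1r3f at 9.44 ± 0.282 and Ccdc22 at 9.32 ± 0.451 FPKM (SD, n = 4), and the use of strand in counting was not given in the sources used here.

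Within the Foxp subfamily the order of levels was Foxp4, Foxp2, Foxp1 in each of the 4 libraries. Foxp4 was higher than Foxp2 by 1.40 ± 0.22 log2 units (SD, n = 4; exact sign-flip permutation test, two-sided p = 0.13). Foxp2 was higher than Foxp1 by 0.23 ± 0.10 log2 units, with ratios of 1.10 to 1.26 (exact p = 0.13). With 4 libraries 0.13 is the smallest p this test can give, and over the 13 neighbouring pairs of the family its adjusted value was 0.148, so no pair could pass.

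Foxa1 and Foxa2 differed more between libraries than most genes of their level, although neither passed after adjustment. Foxa1 (ENSMUSG00000035451, chromosome 12, 57540628 to 57546916) had 6.04, 6.42, 3.501 and 4.35 FPKM in replicates 1 to 4. Foxa2 (ENSMUSG00000037025, chromosome 2, 148042877 to 148046969) had 3.34, 4.37, 1.96 and 3.45 FPKM. Both were highest in replicate 2 and lowest in replicate 3. Over all genes tested, 29.1% were highest in replicate 2 and 35.9% were lowest in replicate 3, the largest share in each case. The range was 1.83-fold for Foxa1 and 2.23-fold for Foxa2. Foxa1 lay at the level of the median gene (log2 difference 0.02, SE 0.14, limma adjusted p = 0.913; above it in 2 of 4 libraries), and Foxa2 lay below it in 4 of 4 (-0.61, SE 0.16, limma adjusted p = 0.00838). Foxa1 exceeded Foxa2 in 4 of 4 libraries, by 0.63 ± 0.24 log2 units (SD, n = 4; exact p = 0.13). Foxa3, which acts mainly in liver and gut, was listed at 0 in all 4 libraries.

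The variance of Foxa1 between libraries was 6.65 times that of genes of like level and the variance of Foxa2 6.69 times (limma, unadjusted p = 0.0440 and 0.0436, adjusted p = 0.831 for both). They were 2 of the 28 members with an unadjusted p under 0.05 (7.14%), against 5.85% of all genes tested. After adjustment limma called 0 members and 0% of all 17630 genes (0 genes), while 1031 genes had an unadjusted p under 0.05. Even Hcrt of the lateral hypothalamus list, at 2.60 to 119 FPKM, did not pass. Its variance was 611 times that of genes of like level (limma, unadjusted p = 4.41e-06). Failing after adjustment therefore says little about a member. Without replicate 2 the unadjusted p was 0.0710 for Foxa1 and 0.0764 for Foxa2, and without replicate 3 it was 0.0773 and 0.284. Of the 12 midbrain dopamine markers, 10 were highest in replicate 2. There Th, which encodes tyrosine hydroxylase, was at 223 FPKM against 103 to 118, the dopamine transporter gene Slc6a3 at 196 against 88.9 to 92.5, and Pitx3, a factor of these neurons, at 4.87 against 2.29 to 2.46. In replicate 1 Foxa1 was also high, while the dopamine list there had a median deviation of -0.12 log2 units. The subthalamic list, which includes the factor gene Barhl1 at 2.69 FPKM in replicate 1, had its highest median deviation there, at 0.41. Both lists were low in replicate 3, with median deviations of -0.35 and -0.33. In replicates 2 and 4 the dopamine list had 0.76 and -0.27, and the subthalamic list -0.25 and 0.24. The deviations there were 0.37 and -0.18 for Foxa1, and 0.46 and 0.13 for Foxa2. Other lists were also highest in replicate 2 and lowest in replicate 3 by median deviation: medial hypothalamus (1.93 and -1.41), pituitary (1.36 and -0.73), tanycyte (0.52 and -0.52) and ependymal (0.19 and -0.39). The part of any of these lists in the levels of Foxa1 and Foxa2 was not tested.

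Foxb1 (ENSMUSG00000059246, chromosome 9, 69757710 to 69760940), the mammillary and hypothalamic member, had 7.36, 5.61, 4.56 and 5.53 FPKM and stood highest in replicate 1 and lowest in replicate 3. It was not called against the median gene (log2 difference 0.22, SE 0.10, limma adjusted p = 0.0802, above it in 3 of 4 libraries), but passed as above without replicate 3, at 0.30. The mammillary list of 9 genes had its highest median deviation, 0.32, in replicate 1 and its lowest, -0.39, in replicate 3, with -0.01 and 0.21 in the other two. Its defining genes Lhx5 and Sim1 lay at 3.84 ± 0.781 and 0.924 ± 0.432 FPKM (SD, n = 4). Foxb2 (chromosome 19, 16872319 to 16873805), the near relative of Foxb1, had 0.521, 0.810, 0.863 and 0.725 FPKM, about 16 to 25 fragments a library. It was lowest in replicate 1, where Foxb1 was highest. Foxb1 exceeded Foxb2 in 4 of 4 libraries, by 5.28-fold to 14.1-fold.

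**Figure D3:**
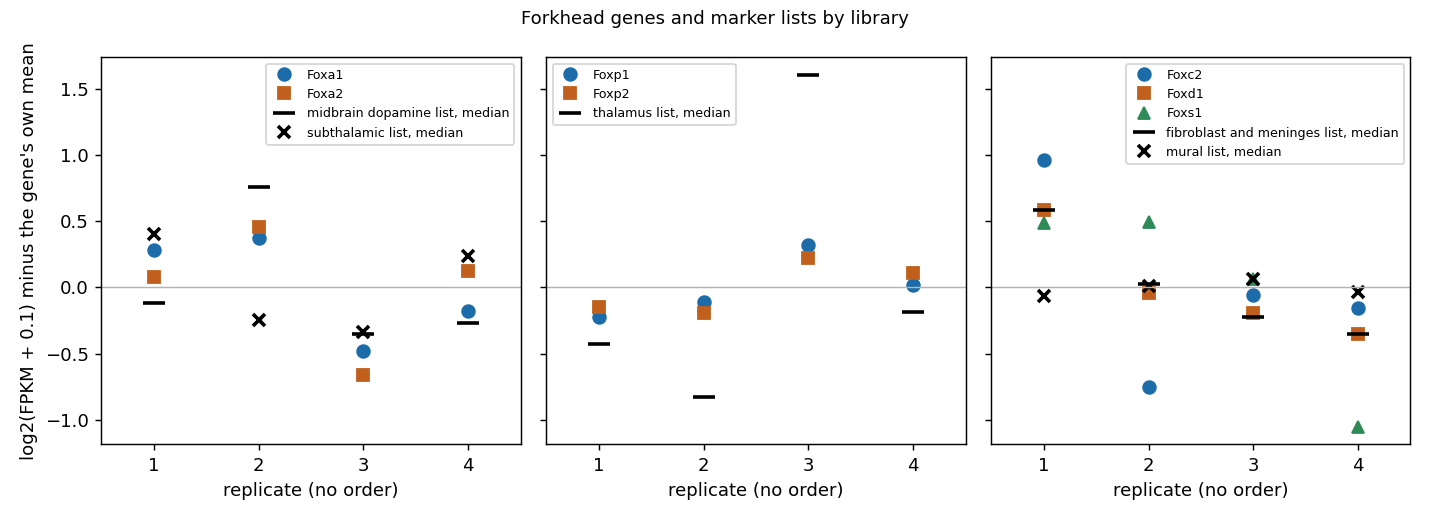
Deviation of log2(FPKM + 0.1) from the gene's own mean over the 4 libraries (vertical axis) for 7 forkhead genes, with the median deviation of marker lists as black symbols; the horizontal axis names the replicates, which have no order. Foxa1 and Foxa2 are highest in replicate 2 and lowest in replicate 3, Foxp1 and Foxp2 highest in replicate 3, and Foxc2 and Foxd1 highest in replicate 1.

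In replicate 3, where Foxp1 and Foxp2 were highest, 9 of the 10 thalamus markers were also at their highest. Prkcd, a kinase gene of thalamic relay neurons, was at 172 FPKM there against 3.72 to 13.4, and the factor gene Tcf7l2 at 42.0 against 6.14 to 17.6. The range of Foxp1 was 1.48-fold and that of Foxp2 1.35-fold, far narrower than for these markers. Their variances were 1.72 and 1.43 times those of genes of like level (limma, unadjusted p = 0.293 and 0.353), so the higher level in replicate 3 was within the spread usual for genes of like level. Of 10 oligodendrocyte markers 9 were highest in replicate 3 as well, with median deviations of -0.33, -0.09, 0.25 and 0.12 in replicates 1 to 4, beside -0.23, -0.11, 0.32 and 0.02 for Foxp1 and -0.14, -0.19, 0.23 and 0.11 for Foxp2. The cortex and hippocampus list had its highest sum there too, at 42.6 FPKM against 11.7 to 26.8, but a median deviation of -0.32. The part of thalamic or cortical tissue or of oligodendrocytes in their level was not tested. Of 16 genes for Foxp partners and corepressor subunits, 13 were above the median gene, 2 below and 1 was not called. Over all genes tested, 47.1% were above and 46.7% below. The corepressor gene Ctbp1 lay at 86.1 ± 3.13 FPKM and Gatad2b, a subunit of the NuRD complex, at 5.05 ± 0.165 FPKM (SD, n = 4).

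The ciliary class held the most abundant member and the member that varied least. Foxj3 (ENSMUSG00000032998, chromosome 4, 119537004 to 119629119), a broadly made factor, had 18.05, 16.3, 15.2 and 18.3 FPKM, the highest mean of the 40 at 17.0 ± 1.48 FPKM (SD, n = 4). It was 3.42-fold above the median gene (log2 difference 1.77, SE 0.06, limma adjusted p = 9.02e-08) and at percentile 76.6 of the genes tested. Foxj2 (chromosome 6, 122819914 to 122845366) had 4.58, 4.47, 4.37 and 4.47 FPKM, a coefficient of variation of 1.86% against a median of 12.2% over all genes tested. It lay just under the median gene in 4 of 4 libraries and was not called (log2 difference -0.12, SE 0.06, limma adjusted p = 0.0812).

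Foxj1 (ENSMUSG00000034227, chromosome 11, 116330704 to 116335399) had 4.97, 5.57, 5.44 and 6.45 FPKM, lowest in replicate 1 and highest in replicate 4. It was above the median gene in 4 of 4 libraries (log2 difference 0.19, SE 0.08, limma adjusted p = 0.0429), a call that was lost without replicate 2, 3 or 4, at 0.21, 0.19 and 0.13, and with a constant prior (limma adjusted p = 0.0632). Its variance was 1.05 times that of genes of like level. Genes listed for Foxj1 and motile cilia, which include regulators beside known targets, lay lower. Of 17 tested from a list of 21, 0 were above the median gene and 17 were below, with a median log2 difference of -2.04. The radial spoke gene Rsph1 lay at 3.27 ± 0.958 FPKM, and the ependymal genes Ccdc153 and Tmem212 at 3.19 ± 0.738 and 2.20 ± 0.740 FPKM (SD, n = 4). Tmem212 was highest in replicate 1, at 3.14 FPKM, where Foxj1 was lowest, and Ccdc153 was highest in replicate 3, at 4.30 FPKM. The sum of 12 ependymal markers was 64.8, 66.4, 45.5 and 52.4 FPKM in replicates 1 to 4, so Foxj1 and that sum did not share their order over the libraries. That sum rests largely on Hdc, Rarres2 and S100a6, at means of 15.5, 11.9 and 9.37 FPKM, none of them on the cilia list. Hdc alone had 19.5, 18.2, 10.1 and 14.3 FPKM in replicates 1 to 4, and the cells it came from were not tested. The sum is therefore not a measure of ciliated cells alone. The choroid plexus genes Folr1 and Kl lay at 0.590 ± 0.131 and 1.38 ± 0.445 FPKM, while Ttr, abundant in choroid plexus, was at 49.7 FPKM in replicate 4 against 0.587 to 1.99.

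Among the broad members, each subfamily had 1 tested gene or a pair above the median gene and the rest below. Foxk2 (ENSMUSG00000039275, chromosome 11, 121259990 to 121309896) had 14.3, 14.9, 13.8 and 15.1 FPKM, 2.94-fold above the median gene (log2 difference 1.56, SE 0.04, limma adjusted p = 4.76e-08). Foxk1 (chromosome 5, 142401497 to 142462011), with which Foxk2 shares roles in repressing autophagy genes and in glycolysis, had 2.81, 3.29, 2.76 and 3.29 FPKM and was below it (-0.67, SE 0.08, limma adjusted p = 9.10e-05), a call that was lost without a filter on low values (-0.019) and after multiplication by transcript length (-0.054). Foxk2 exceeded Foxk1 by 4.53-fold to 5.09-fold, the most even ratio among the 13 pairs, at 2.23 ± 0.08 log2 units (SD, n = 4; exact p = 0.13). Of 10 genes for Foxk partners, 7 were above the median gene and 3 below, against 47.1% and 46.7% of all genes tested. The deubiquitinase gene Bap1 lay at 31.2 ± 2.08 FPKM and the corepressor scaffold Sin3a at 6.12 ± 0.611 FPKM.

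Foxn3 (ENSMUSG00000033713, chromosome 12, 99190078 to 99563582), a checkpoint repressor, had 10.9, 10.5, 12.2 and 11.3 FPKM, 2.27-fold above the median gene (log2 difference 1.18, SE 0.06, limma adjusted p = 1.55e-06). Its relative Foxn2 (chromosome 17, 88440711 to 88490533) had 2.71, 2.50, 2.55 and 2.71 FPKM, below the median gene (-0.87, SE 0.07, limma adjusted p = 1.63e-05). The ratio of Foxn3 to Foxn2 lay between 4.005 and 4.78 in the 4 libraries. Of 5 genes for checkpoint partners, 3 were above the median gene and 2 below, against 47.1% and 46.7% of all genes tested. Men1, which encodes menin, lay at 20.4 ± 1.23 FPKM (SD, n = 4). Foxn1, the thymic epithelial factor, was listed at 0.0158 FPKM in replicate 3, 0.0157 FPKM in replicate 4 and 0 in the others. Foxn4, a factor of retinal and spinal progenitors, was listed at 0.0172 FPKM in replicate 3 and at 0 in the others, and each of these values amounts to about 1 fragment.

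The Foxo genes fell into a higher and a lower pair. Foxo4 (ENSMUSG00000042903, chromosome X, 101254528 to 101260873) had 5.03, 6.74, 6.86 and 6.61 FPKM, with replicate 1 apart from the other 3. Foxo3 (ENSMUSG00000048756, chromosome 10, 42181841 to 42276755), linked to neuronal stress responses, had 6.04, 5.50, 6.56 and 6.20 FPKM. Both were above the median gene in 4 of 4 libraries, Foxo4 by 0.35 (SE 0.09, limma adjusted p = 0.00728) and Foxo3 by 0.31 log2 units (SE 0.07, limma adjusted p = 0.00421). Foxo4 exceeded Foxo3 in 3 of 4 libraries, with a difference of 0.05 ± 0.23 log2 units that was smaller than its spread (SD, n = 4; exact p = 0.625).

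Foxo6 (chromosome 4, 120267079 to 120287349), the member of this subfamily found mainly in brain, had 2.16, 2.58, 1.91 and 3.54 FPKM, highest in replicate 4. Foxo1 (chromosome 3, 52268336 to 52353221), the main insulin-controlled member in liver and hypothalamus, had 2.42, 2.62, 1.62 and 2.14 FPKM, and both were lowest in replicate 3. Both were below the median gene in 4 of 4 libraries, Foxo6 by -0.95 (SE 0.14, limma adjusted p = 0.000403) and Foxo1 by -1.13 log2 units (SE 0.11, limma adjusted p = 4.44e-05). They differed from each other by 0.19 ± 0.38 log2 units, with Foxo6 higher in 2 of 4 libraries (SD, n = 4; exact p = 0.5). Foxo3 exceeded Foxo6 in 4 of 4, by 1.75-fold to 3.44-fold.

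Of 35 genes that control Foxo proteins or are their known targets, 34 were tested. Of these, 25 were above the median gene, 7 were below and 2 were not called, against 47.1% above and 46.7% below over all genes. The 3 most abundant encode 14-3-3 proteins, which bind phosphorylated Foxo: Ywhah at 562 ± 34.7, Ywhag at 407 ± 19.8 and Ywhae at 366 ± 15.9 FPKM (SD, n = 4). The kinase gene Akt1 lay at 69.4 ± 3.11 FPKM. Pdk4, a metabolic Foxo target, lay at 3.09 ± 0.576 FPKM and was below the median gene (log2 difference -0.66, limma adjusted p = 0.000806).

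**Figure D4:**
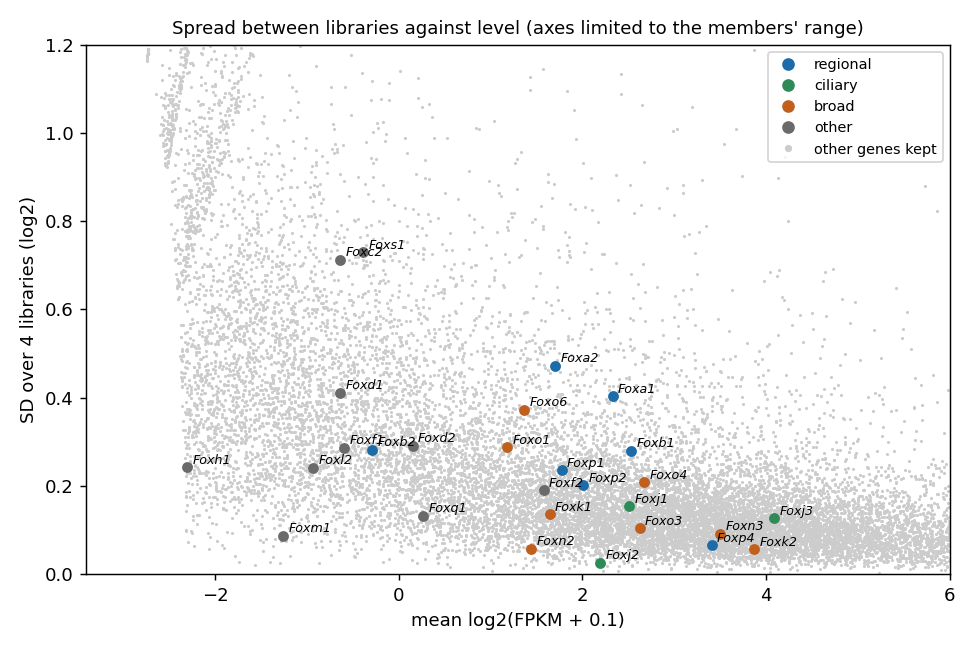
SD of log2(FPKM + 0.1) over the 4 libraries against the mean of the same quantity, for the forkhead genes tested (coloured by class and named) and for other genes (grey). Foxa1 and Foxa2 lie above most grey points of their level, Foxc2 and Foxs1 have the largest SDs at 0.71 and 0.73, and Foxj2 has the smallest at 0.03.

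Spread between libraries ran along the classes as follows. The median SD of log2 levels was 0.28 in the regional class (range 0.07 to 0.47), 0.13 in the ciliary class (0.03 to 0.15), 0.12 in the broad class (0.06 to 0.37) and 0.26 in the class of others (0.09 to 0.73), against 0.17 over all genes tested. Variance on this scale differs with level, and each variance was therefore also set against genes of like level. On that scale the median ratio was 1.72 in the regional class, 1.05 in the ciliary, 0.54 in the broad and 0.81 in the class of others, against 0.93 over all genes. A ratio above 1 was found in 5 of 7 regional, 2 of 3 ciliary, 3 of 8 broad and 5 of 10 other members. These are descriptions of few genes in 4 libraries, and the difference between the classes was not tested.

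All 10 tested members of the class of others were below the median gene, and 8 more had too little signal to be tested. Foxf2 (chromosome 13, 31625816 to 31631403), a factor of brain pericytes, was the highest at 2.65, 3.45, 2.98 and 2.55 FPKM, 1.67-fold below the median gene (log2 difference -0.74, SE 0.09, limma adjusted p = 0.000156). Its relative Foxf1, of lung and gut mesenchyme, was lower in each library, at 0.732, 0.418, 0.529 and 0.603 FPKM, by 3.62-fold to 8.25-fold. Foxq1 (chromosome 13, 31556134 to 31560976), found in brain endothelium among other epithelia and endothelia, had 1.05, 0.976, 1.21 and 1.18 FPKM. The mural markers Rgs5 and Kcnj8 lay at 32.7 ± 1.49 and 2.48 ± 0.342 FPKM, and the endothelial markers Cldn5 and Flt1 at 34.9 ± 6.51 and 8.59 ± 0.382 FPKM (SD, n = 4).

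Foxc2, Foxd1 and Foxs1 had low and uneven levels. Foxc2 (chromosome 8, 121116171 to 121118895), a factor of lymphatic and mesenchymal development, had 1.15, 0.280, 0.518 and 0.476 FPKM, highest in replicate 1 and a 4.11-fold range. Foxd1 (chromosome 13, 98354242 to 98359305), known from pericyte precursors and the embryonic hypothalamus, had 0.863, 0.524, 0.462 and 0.402 FPKM, also highest in replicate 1. Replicate 1 held the highest level of 11 of 12 fibroblast and meningeal markers, with Col1a1 at 2.78 FPKM against 1.36 to 2.16 and a list sum of 125 FPKM against 66.5 to 86.1. The mural list had its highest sum there, 161 FPKM against 124 to 140, but a median deviation of -0.07. Foxs1 (chromosome 2, 152931898 to 152933208), of pericytes and peripheral sensory neurons, had 0.977, 0.981, 0.702 and 0.270 FPKM, lowest in replicate 4. That value rests on about 7 fragments, against 18 to 27 in the other libraries. The mural sum was also lowest in replicate 4, at 124 FPKM, but the median deviation of the list there was -0.03. Its abundant genes Vtn and Acta2 were lowest in replicate 4, at 49.6 and 16.3 FPKM. Its defining genes were lowest elsewhere, Rgs5 in replicate 1 at 31.0 FPKM and Kcnj8 in replicate 2 at 2.11 FPKM, against 33.1 and 2.52 FPKM in replicate 4. The variances of Foxc2, Foxd1 and Foxs1 were 3.64, 1.21 and 4.56 times those of genes of like level (limma, unadjusted p = 0.114, 0.409 and 0.0817). For Foxs1 the unadjusted p was 0.0395 without replicate 3 and 0.595 without replicate 4. Foxl1 (chromosome 8, 121127940 to 121130644), the neighbour of Foxc2 and Foxf1 on chromosome 8, was also highest in replicate 1, at 0.107 FPKM or about 6 fragments, against 0.0378 to 0.0412 FPKM or about 2. A read-through model that spans Foxf1, Foxc2 and Foxl1 on the same strand was listed at 0 in all libraries. The part of meningeal tissue or mural cells in these levels was not tested.

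Foxd2 (chromosome 4, 114906282 to 114908873), a kidney and mesenchyme factor, had 0.954, 1.05, 0.781 and 1.33 FPKM and exceeded Foxd1 in 4 of 4 libraries, by 1.11-fold to 3.31-fold. Foxl2 (chromosome 9, 98955288 to 98958543), a factor of ovary and of pituitary gonadotrope and thyrotrope cells, had 0.375, 0.575, 0.392 and 0.385 FPKM. Replicate 2 stood apart as the highest, with about 38 fragments against 25 in each of the others, and it was also the library with the highest Cga and Pomc, at 12.1 and 30.1 FPKM. The thyrotrope gene Tshb was not highest there, at 0.726 FPKM against 0.749 in replicate 3. Pomc is also made in the medial hypothalamus, whose list summed to 184 FPKM in replicate 2 against 10.9 to 34.2. An antisense gene overlaps Foxl2, and the part of pituitary or medial hypothalamic RNA in its level was not tested.

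Foxm1 (chromosome 6, 128362967 to 128376146), the driver of G2 and M phase genes in dividing cells, was at 0.318, 0.345, 0.287 and 0.330 FPKM, 11.9-fold below the median gene (log2 difference -3.57, SE 0.17, limma adjusted p = 9.27e-07). It partly overlaps Tex52 on the same strand, which lay at 1.74 ± 0.274 FPKM (SD, n = 4). Of 16 cell cycle genes 10 were tested, 0 were above the median gene and 10 were below, and the proliferation markers Mki67 and Top2a lay at 0.0342 ± 0.00903 and 0.123 ± 0.0382 FPKM. Foxh1 (chromosome 15, 76668225 to 76669948), a partner of activin and Nodal signals in the embryo, was at 0.106, 0.0624, 0.109 and 0.144 FPKM, about 2 to 4 fragments. Of 17 genes of activin and related signalling 15 were tested, and 6 were above the median gene, 7 below and 2 not called. The shares over all genes tested were 47.1% above and 46.7% below. Smad2 lay at 10.1 ± 1.80 FPKM.

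The other members were at or near 0. Foxe1 and Foxi3 were listed at 0 in all libraries, as was Foxa3. Foxd3, a neural crest factor, was listed at 0.0591 FPKM in replicate 1, about 3 fragments, and at 0 in the others. Foxe3, a lens factor, was listed at 0.00815 FPKM in replicate 2 alone, less than 1 fragment. Foxi1 reached 0.0623 FPKM in replicate 2 and 0.0643 FPKM in replicate 4, about 3 fragments each. Foxi2 had 0.0181 FPKM in replicate 1 and 0.0557 FPKM in replicate 2, and both genes were listed at 0 elsewhere. Foxd4 lay between 0.0205 and 0.0631 FPKM in the 4 libraries, about 1 to 3 fragments. At such numbers no difference between libraries was detectable.

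Among the members, groups with more exons had higher median levels, although single genes did not all follow that order. Of the 12 members whose longest annotated transcript has a single exon, 7 were tested, 0 were above the median gene and 7 below, and the highest mean was 1.10 FPKM, that of Foxq1. The 14 members with 2 or 3 exons reached 6.31 FPKM, with 2 above, 6 below and 2 not called among the 10 tested. The 14 members with 4 or more exons reached 17.0 FPKM, with 5 above, 5 below and 1 not called among the 11 tested. The medians of the mean FPKM were 0.497, 2.37 and 3.66 in that order, as a description without a test. Foxm1 and Foxh1, of the class of others, have 8 and 3 exons and lay at 0.320 and 0.105 FPKM. In the regional class Foxa1 and Foxb1, with 2 exons, lay at 5.08 and 5.76 FPKM. Foxp1 and Foxp2, with 19 exons, lay lower at 3.36 and 3.95 FPKM, and Foxp4, with 17, higher at 10.5 FPKM. Apart from Foxb2, the single-exon members all belong to the class of others, so for single-exon members exon number and class cannot be told apart. The same shares were not taken over all genes.

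**Figure D5:**
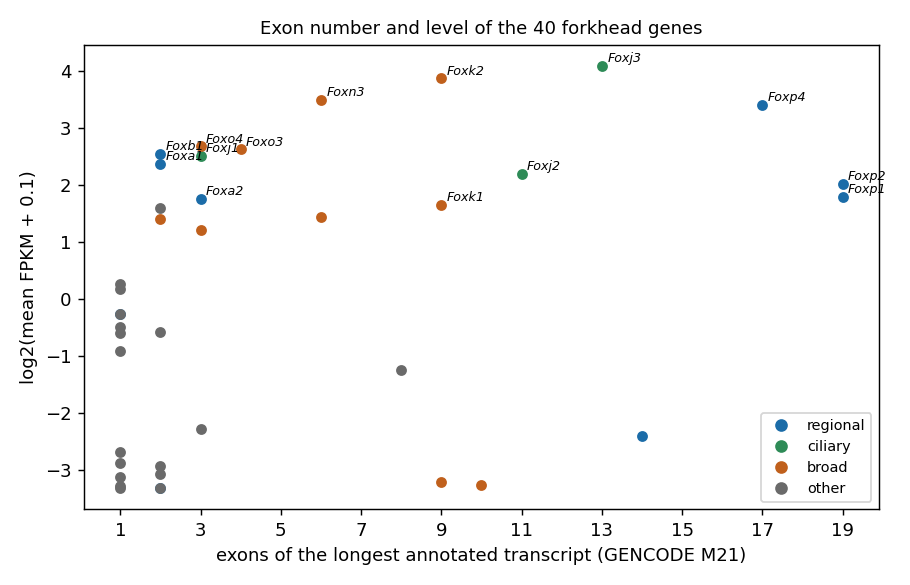
Mean level of all 40 forkhead genes, as log2(mean FPKM + 0.1), against the number of exons of the longest annotated transcript, coloured by class; genes above 3 FPKM are named. The 12 members with a single exon reach no more than 1.10 FPKM, and the members with the highest levels, Foxj3 and Foxk2, have 13 and 9 exons.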

How the data were processed

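Per the labels' protocols, TRIzol RNA went into a dual-mode mRNA library kit. The authors give GRCm38 as the build, per the submitters' processing notes; aligner, counting program, annotation and strand setting were not given in the sources used here. Each library has 1 table, which the authors deposited without naming the unit. The deposited values were read as FPKM, because they are not whole and their totals differ, while value times length in genes with 1 transcript peaks at a common step. Of the values under 0.3 FPKM in those genes, 22.9% to 24.4% fell no more than 0.05 from a whole step, too few to rebuild reads, and no count test was run. The third replicate's column is headed with a letter, and was taken from its title. Apart from the numbering, no label says that the replicates were different animals; p-values cover the spread among these samples, which may be technical.

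Symbols came from a list of gene names, with 22022 entries named beside 22036 Ensembl identifiers. Coordinates, exons and lengths came from GENCODE M21 (GRCm38). Of the 17630 genes tested, 15383 had a length there, and the others stayed in the median gene and the shares over all genes. The filter asked for a mean of at least 0.1 FPKM. On log2(FPKM + 0.1), where differences between low genes come out too small, an intercept-only limma 3.58.1 fit (R 4.3.3, trended prior with 3.56 degrees of freedom) tested each gene against the library's median gene, two-sided. Variances were tested against limma's trended, robust prior (4.28 degrees of freedom), one-sided, and both were adjusted by Benjamini-Hochberg over 17630 genes with a threshold of 0.05. Both tests were checked on simulated data. Neighbours by mean level within subfamilies were compared by an exact sign-flip permutation test. Other pseudocounts, filters, references, scalings, priors and the omission of each replicate were tried. All 40 members are accounted for; of other lists the text names the 3 most abundant and preset defining genes. Members, classes and lists were chosen with earlier results of these data known. Python 3.11.15, pandas 2.3.3, numpy 2.4.6 and matplotlib 3.10.9 were used.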

Additional observations from a re-analysis of the deposited data

Results flagged for a closer look

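In 2 of the 28 members tested 1 library stood apart from its group: its gap to the nearest library, as a share of the whole range, passed Dixon's 95% critical value for 4 samples. Chance flags about 1 in 20 normally distributed groups, and 7.32% of all genes tested were flagged in the same way. Foxl2 was high in replicate 2, at 0.575 FPKM against 0.375 to 0.392, with a share of 0.916. Foxo4 was low in replicate 1, at 5.03 FPKM against 6.61 to 6.86, with a share of 0.863.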

How the results depend on the processing

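The small number of libraries and the depth of these libraries limit the low members, whose values rest on few fragments. No paired analysis was possible because all samples belong to 1 group.

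Levels near the median gene depend on what defines it. The counts of members above were 11 without a filter, 4 with a filter of 1 FPKM, 18 against 1 FPKM and 21 against 1 TPM (each library scaled to the same total). The counts below were 7 against 1 FPKM and 1 against 1 TPM. Over all genes, 3918 were below 1 FPKM, and 13869 were above and 1755 below 1 TPM. Leaving out each replicate in turn gave 6 to 7 members above and 17 to 19 below.

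With a filter of 1 FPKM the log2 differences turned to -0.87 for Foxa1, -0.67 for Foxb1, -0.70 for Foxj1, -0.58 for Foxo3 and -0.53 for Foxo4, and the class medians were -0.70 for ciliary (reversed), -1.07 for broad and -1.03 for regional members. Without a filter they turned to 0.040 for Foxa2, 0.53 for Foxj2, 0.11 for Foxp1 and 0.34 for Foxp2, the calls of Foxf2 (-0.085), Foxk1 (-0.019) and Foxo6 (-0.30) were lost, and Foxa1 (0.67) and Foxb1 (0.87) were called above. Against 1 FPKM they turned to 1.57 for Foxa2, 0.015 for Foxd2, 1.44 for Foxf2, 2.06 for Foxj2, 1.51 for Foxk1, 1.30 for Foxn2, 1.04 for Foxo1, 1.23 for Foxo6, 1.64 for Foxp1, 1.87 for Foxp2 and 0.13 for Foxq1. Against 1 TPM they turned to 2.74 for Foxa2, 0.67 for Foxb2, 0.28 for Foxc2, 0.29 for Foxd1, 1.14 for Foxd2, 0.34 for Foxf1, 2.62 for Foxf2, 3.24 for Foxj2, 2.69 for Foxk1, 2.48 for Foxn2, 2.21 for Foxo1, 2.40 for Foxo6, 2.82 for Foxp1, 3.05 for Foxp2, 1.26 for Foxq1 and 0.56 for Foxs1. The calls below were lost for Foxs1 against 1 FPKM (-0.52) and for Foxl2 (-0.027) and Foxm1 (-0.40) against 1 TPM. Foxa1 and Foxb1 were called above both. Foxj2 was called below with a filter of 1 FPKM (-1.01). These turns follow from the reference, which is lower or higher by construction.

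Multiplied by transcript length, the call of Foxk1 was lost (-0.054), and values turned to -0.57 for Foxa1, -0.46 for Foxb1, -0.67 for Foxj1, -0.24 for Foxo4, 0.028 for Foxp1 and 0.18 for Foxp2. The pairs turned to -0.058 for Foxd2 minus Foxd1, -0.69 for Foxj1 minus Foxj2, -1.06 for Foxo4 minus Foxo3 and -1.52 for Foxo6 minus Foxo1, since the second gene of each has the longer transcript. Foxo4 minus Foxo3 was -0.036 without replicate 2, the lowest without each replicate, and 0.15 without replicate 1, the highest. Of the 13 pairs, 11 kept 1 order in every library, 12 after multiplication by length and 11 to 12 without each replicate. With 1 added before taking logarithms the median of the class of others was -1.90.

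Without replicate 3 or 4 the variance test called 4 and 8 genes (range 0 to 8 over the replicates left out), and 3 with TPM, none of them members. The number of members at an unadjusted p under 0.05 was 0 without a filter, with a constant prior, with a prior that is not robust and with values centred on the median gene, and 0 to 2 without each replicate; the cause was not tested.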
